A study of Bos taurus with 6 samples.

Results

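Sphingolipid synthesis was represented by 10 genes, picked by symbol from the 28200 rows of a bovine count table, each with a single row. They were the serine palmitoyltransferase subunit genes SPTLC1, SPTLC2 and SPTLC3, the inhibitor genes ORMDL1, ORMDL2 and ORMDL3, and KDSR, CERS2, CERS6 and DEGS1 of the later steps. The set was drawn up because SPTLC3 had no reads in 1 of the 2 genotypes. SPTLC3 is therefore described without a test, and the other 9 genes, listed for their place in the pathway, were read from the test over all genes. The question was whether other subunits of the enzyme were higher where SPTLC3 was not read.

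The samples were primary mammary epithelial cells of Holstein cattle, obtained by enzyme digestion of mammary tissue. In 3 libraries the gene for the zinc-finger transcription factor KLF6 had been disrupted with CRISPR/Cas9, and 3 libraries came from wild-type cells. No other treatment is named for either genotype. The labels are silent on whether replicates were separate cultures, animals or edited clones, and on where KLF6 was cut. The p-values therefore reflect no more than the spread among 3 libraries per genotype, part or all of which could be technical.

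All sphingolipids share a backbone made in the endoplasmic reticulum. Serine palmitoyltransferase joins serine to a fatty acyl-CoA, and its core pairs SPTLC1 with either SPTLC2 or SPTLC3, which differ in the acyl chains they prefer. ORMDL proteins sit on this complex and hold it back when ceramide is plentiful. KDSR reduces the product, a ceramide synthase adds an acyl chain, and DEGS1 introduces the double bond that turns dihydroceramide into ceramide. Ceramide then leaves for sphingomyelin, which lines the milk fat globule, or for glycosphingolipids, or is broken down to sphingosine and its phosphate.

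Total counts ran from 17512892 to 18724879 per library. KLF6 itself fell in the knockout, with 503, 496 and 558 counts-per-million (CPM) in wild-type replicates 1 to 3 and 224, 230 and 217 CPM in knockout replicates 1 to 3, with no overlap between genotypes (log2 fold change -1.21 ± 0.05, edgeR adjusted p = 2.25e-13). Wild-type replicate 3 stood apart: the variance between its counts and those of wild-type replicates 1 and 2 was 9.07 and 9.01 times what counting alone gives, and 2.26 to 2.80 times in the remaining pairs within a genotype. Summed luminal markers spanned 10976 to 12301 CPM in wild-type and 3955 to 4114 CPM in knockout libraries (6 of 8 fell). Most of that sum was KRT8 and KRT18, and EPCAM and CDH1 did not pass (0.01 ± 0.05 and -0.08 ± 0.04 on the log2 scale). Basal markers spanned 6156 to 6241 and 2658 to 2733 CPM (5 of 6 fell, 1 rose). Most of that sum was KRT5, with means of 4679 CPM in wild type and 2018 CPM in the knockout. KRT15 went from 953 to 1.99 CPM, while KRT14 was the 1 that rose, from 304 to 515 CPM. The numbers of luminal and basal markers that rose or fell, and those of the markers that follow, stand beside 37.1% up and 37.6% down of all genes tested. Fibroblast markers spanned 1054 to 1250 CPM in wild-type and 245 to 258 CPM in knockout libraries (4 of 6 tested fell, 1 rose). Most of that sum was DCN, with means of 1134 and 229 CPM, while COL1A2 had 0 counts in wild-type and 278 in knockout libraries. Squamous markers spanned 63.5 to 69.4 and 6.97 to 7.61 CPM (2 of 3 tested fell, KRT1 at 0 throughout). Those that fell were IVL and TGM1, KRT10 did not pass, and SPRR1B, LOR and FLG had no row. Endothelial markers spanned 3.64 to 4.70 and 30.6 to 32.5 CPM (1 of 2 tested rose and 1 fell). PECAM1 held most of the knockout sum, with 12 counts in wild-type and 1682 in knockout libraries, while VWF fell by 3.85 ± 0.31 on the log2 scale. Leukocyte markers (7.18 to 8.85 and 3.27 to 3.70 CPM, 1 of 2 tested fell) and adipocyte markers (1.75 to 2.35 and 1.89 to 4.24 CPM, the 1 tested did not pass) were low. KDR, PTPRC and ADIPOQ were at 0 in all libraries. The part of all these markers in the results below was not tested. In bulk RNA, fewer cells of a type and less RNA per cell cannot be told apart.

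Among the 9 genes besides SPTLC3, 5 rose (ORMDL1, ORMDL2, KDSR, CERS6 and DEGS1), 3 fell (SPTLC2, ORMDL3 and CERS2) and SPTLC1 did not pass. These 8 calls, by edgeR's quasi-likelihood test with Benjamini-Hochberg adjustment at 0.05, stand beside 74.6% of all 13390 genes tested, so being called sets none of these genes apart. By direction the background was 37.1% up and 37.6% down. CPM values did not overlap between genotypes for the same 8 genes, beside 76.2% of all genes. Changes of at least 1.5-fold were called for 3 of the 9 (CERS6, ORMDL1 and DEGS1), beside 41.5% of all genes, and of at least 2-fold for CERS6 alone, beside 22.3%. The median size of the log2 fold change was 0.44 for the 9 genes and 0.50 for all genes. What follows is thus an account of which step moved which way, at changes of ordinary size for this comparison.

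**Figure D1:**
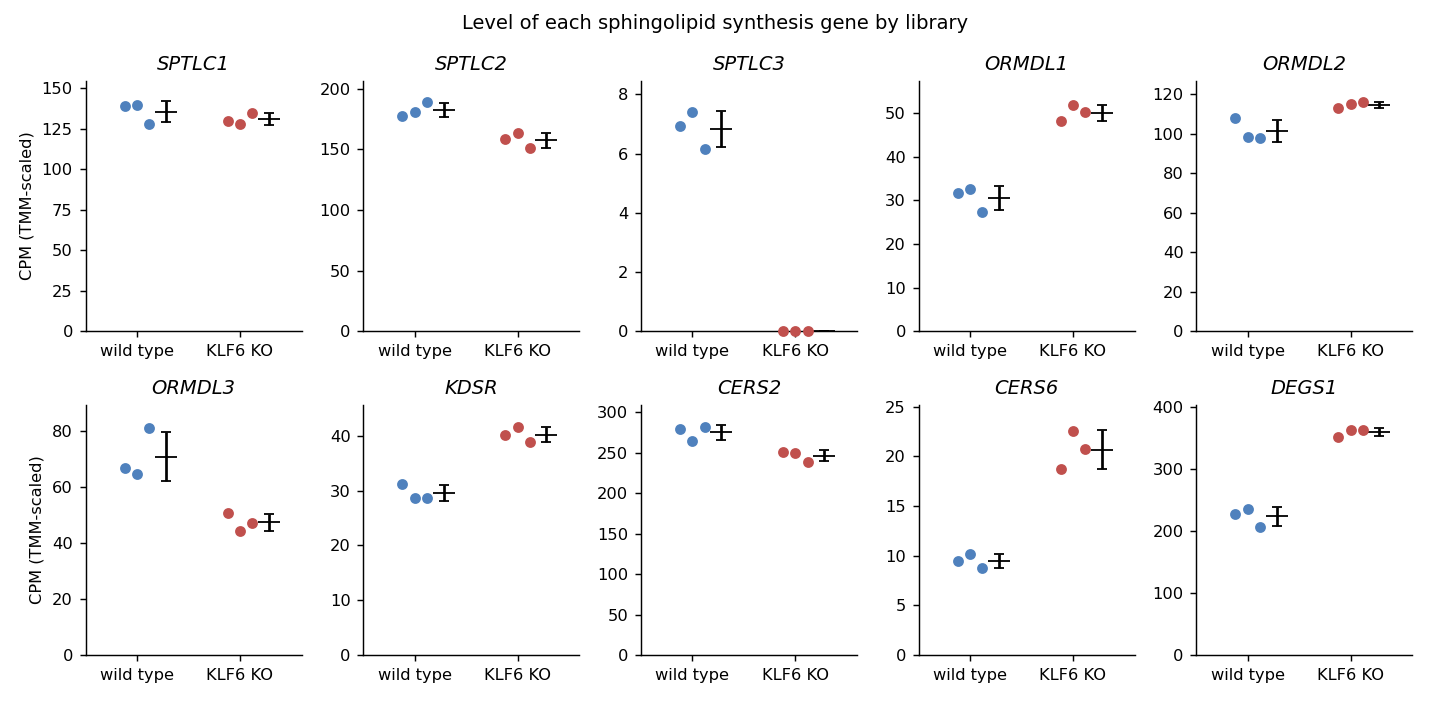
Level of each of the 10 genes in CPM of the TMM-scaled library, 1 panel per gene with its own axis from 0. Points are libraries, wild type in blue and knockout in red, and black bars give the mean ± SD of 3 libraries. SPTLC3 lies at 0 in all 3 knockout libraries, SPTLC1 overlaps between genotypes, and the other 8 genes do not overlap.

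SPTLC3 (ENSBTAG00000014252, chromosome 13, 6598913 to 6750081, plus strand; the sources used here name no build) had 123, 138 and 113 counts in wild-type replicates 1 to 3 and 0 counts in each knockout library. Its wild-type level was 6.94, 7.39 and 6.17 CPM, so it was a low transcript in wild-type cells as well. Taking 3 counts over the 3 knockout libraries as the floor, its level was at least 123-fold lower in the knockout. With 2 knockout libraries in place of 3 the same floor rests on fewer reads, and the bound was 82.8-fold, 80.6-fold and 81.7-fold without knockout replicate 1, 2 and 3. Over all 3 libraries the floor is 0.0558 CPM, and covers counting error only.

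Genes near SPTLC3 kept their reads. Of the 8 tested loci nearest to SPTLC3, 4 on each side, 5 rose, 1 fell and 2 did not pass. Of all genes, 37.1% rose and 37.6% fell, 74.6% together, so being called does not set these loci apart. The nearest tested gene upstream was BTBD3, which starts at -1143 kb from the start of SPTLC3 and fell by 0.92 ± 0.08 on the log2 scale. On the other side ISM1, which starts 218 kb after the start of SPTLC3, rose by 0.71 ± 0.25, with 124 counts in the knockout and 77 in wild-type libraries. TASP1 had a log2 fold change of 0.08 ± 0.09 and did not pass, while ESF1 and NDUFAF5 rose (0.51 ± 0.11 and 0.61 ± 0.11). KLF6 lies on the same chromosome, 37.8 Mb from SPTLC3. The median log2 fold change of the 494 tested genes of chromosome 13 was 0.08.

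**Figure D2:**
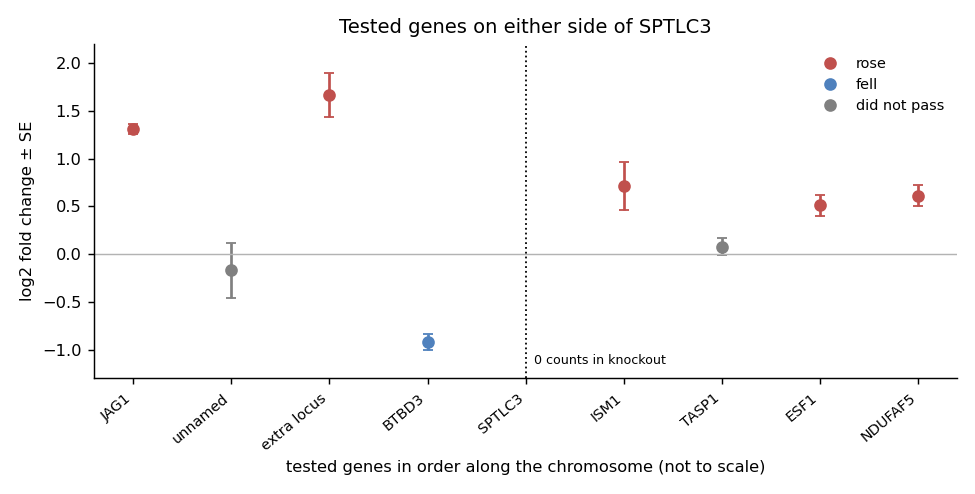
Log2 fold change (knockout over wild type) ± SE of the 4 tested loci on each side of SPTLC3, in chromosome order and not to scale; colours give the edgeR call. The dotted line marks SPTLC3, which has 0 counts in the knockout and no point; ISM1, next to it, lies at 0.71 and BTBD3 at -0.92.

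Neither of the other large subunits rose in the knockout. SPTLC1 (ENSBTAG00000002220, chromosome 8, 85780390 to 85846082, plus strand), the partner common to both forms of the enzyme, was at 139, 140 and 128 CPM in wild-type and 130, 128 and 135 CPM in knockout libraries. The genotypes overlapped, and the log2 fold change was -0.05 ± 0.05 (SE; 95% interval -0.15 to 0.05; edgeR adjusted p = 0.364). That interval reaches no rise above 0.05 on the log2 scale. The median of the 416 tested genes of chromosome 8 was 0.18, which leaves -0.23 for SPTLC1 when taken out.

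SPTLC2 (ENSBTAG00000020480, chromosome 10, 88689279 to 88784551, minus strand), which takes the same place in the complex as SPTLC3, was at 177, 181 and 189 CPM in wild-type libraries. In the knockout it was at 158, 163 and 151 CPM, below every wild-type library. It fell by 0.21 ± 0.05 on the log2 scale (1.16-fold; 95% interval -0.31 to -0.11; edgeR adjusted p = 0.000561). Genes of chromosome 10 were lower as a body, with a median of -0.28 over 606 tested genes, and with that median taken out the value for SPTLC2 was 0.07, of opposite sign. SPTLC2 was thus lower by about as much as its chromosome.

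Levels of different genes were compared as CPM per kilobase of the deposited gene length. On that scale the wild-type means were 51.1 ± 2.49 for SPTLC1, 89.3 ± 2.82 for SPTLC2 and 1.41 ± 0.128 for SPTLC3 (SD, n = 3 each). SPTLC3 thus made up 1.62%, 1.70% and 1.36% of the summed SPTLC2 and SPTLC3 level in wild-type replicates 1 to 3. In the knockout its floor allows at most 0.0150% of that sum.

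The summed per-length level of the 3 large subunits was 141, 143 and 142 in wild-type and 126, 128 and 125 in knockout libraries, a mean ratio of 0.891. Most of that difference lay in SPTLC2, which changed by -12.2, while SPTLC1 changed by -1.76 and SPTLC3 by -1.41. The ratio of SPTLC2 plus SPTLC3 to SPTLC1 was 1.68, 1.71 and 1.94 in wild-type and 1.58, 1.66 and 1.45 in knockout libraries. The genotypes did not overlap in this ratio, but the highest knockout and the lowest wild-type library lay close together, and SPTLC2 to SPTLC1 alone did overlap (1.66 to 1.91 and 1.45 to 1.66). No test was made of these sums and ratios, since their members were chosen. Chromosome medians were not taken out of them. With those medians taken out, SPTLC1 stood at -0.23 and SPTLC2 at 0.07 on the log2 scale.

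The small subunits bind the core and raise its activity. Only SPTSSA had enough counts for the test, and it did not pass. SPTSSA was at 38.2, 34.1 and 39.4 CPM in wild-type and 37.9, 39.1 and 37.9 CPM in knockout libraries, with a log2 fold change of 0.04 ± 0.07 (95% interval -0.11 to 0.19; edgeR adjusted p = 0.602). SPTSSB had 0 counts in all 6 libraries.

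**Figure D3:**
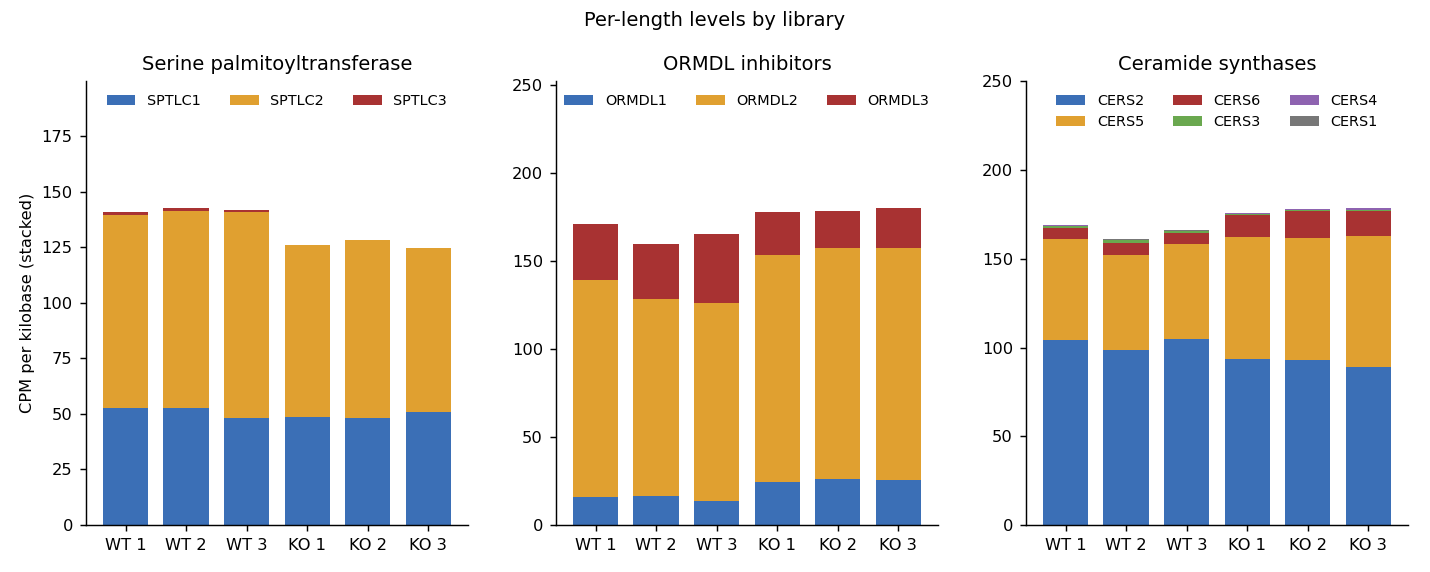
Stacked per-length levels (CPM per kilobase) in each library for the large subunits of serine palmitoyltransferase, the ORMDL genes and the ceramide synthases; WT is wild type and KO is the knockout. The subunit bars are lower in the knockout (125 to 128 against 141 to 143), with SPTLC3 as a thin cap in wild type, whereas the ORMDL and ceramide synthase bars are slightly higher and divided differently.

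The 3 ORMDL genes, which encode closely related inhibitors, did not move together. ORMDL1 (ENSBTAG00000012561, chromosome 2, 6572135 to 6584583, plus strand) was at 31.7, 32.7 and 27.4 CPM in wild-type and 48.2, 51.8 and 50.3 CPM in knockout libraries. It rose by 0.71 ± 0.07 on the log2 scale (1.64-fold; edgeR adjusted p = 7.62e-08), with every knockout library above every wild-type library.

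ORMDL3 (ENSBTAG00000013855, chromosome 19, 40256170 to 40262469, minus strand) went the other way. It was at 66.8, 64.7 and 80.9 CPM in wild-type and 50.6, 44.2 and 47.1 CPM in knockout libraries. It fell by 0.58 ± 0.08 on the log2 scale (edgeR adjusted p = 6.53e-06). Its highest value was that of wild-type replicate 3, and without that library the log2 fold change was -0.47, still called. The median of the 813 tested genes of chromosome 19 was -0.25, which leaves -0.33 for ORMDL3 when taken out.

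ORMDL2 (ENSBTAG00000020663, chromosome 5, 57446157 to 57449119, minus strand) was at 108, 98.3 and 98.0 CPM in wild-type and 113, 115 and 116 CPM in knockout libraries. It rose by a small amount, 0.18 ± 0.05 on the log2 scale (edgeR adjusted p = 0.00402), of which 0.08 was left with the median of chromosome 5 taken out. Per length ORMDL2 was the highest of the 3 in both genotypes, at 116 ± 6.62 CPM per kilobase in wild type.

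The balance of the inhibitors therefore differed more than their sum. ORMDL1 went from 9.32% ± 0.964 to 14.1% ± 0.481 of the summed per-length ORMDL level, and ORMDL3 from 20.7% ± 2.67 to 12.8% ± 0.917 (SD, n = 3 each). The ratio of ORMDL1 to ORMDL3 was 0.494, 0.526 and 0.352 in wild-type and 0.990, 1.22 and 1.11 in knockout libraries, a mean ratio 2.42 times as high. The summed level was 171, 160 and 164 CPM per kilobase in wild-type and 178, 179 and 180 in knockout libraries. Against SPTLC1, the ORMDL sum stood at 3.27, 3.03 and 3.41 in wild-type and 3.64, 3.70 and 3.54 in knockout libraries, so the knockout had somewhat more ORMDL RNA per unit of SPTLC1 RNA.

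The reads of 2 of these genes may mix with those of neighbours on the opposite strand, since the strand setting of the counting is not given. ORMDL1 lies whole within PMS1 (1675 counts in all, log2 fold change 0.32 ± 0.10), and ORMDL2 overlaps DNAJC14 by 26 bases. Another regulator, RTN4, whose Nogo-B product has been described as an inhibitor of serine palmitoyltransferase, rose by 0.16 ± 0.04 on the log2 scale.

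After the first step, both shared enzymes were higher in the knockout. KDSR (ENSBTAG00000007723, chromosome 24, 61599658 to 61638727, minus strand), the ketosphinganine reductase, was at 31.2, 28.7 and 28.7 CPM in wild-type and 40.1, 41.6 and 38.9 CPM in knockout libraries. It rose by 0.44 ± 0.07 on the log2 scale (1.36-fold; edgeR adjusted p = 1.32e-05). The median of the 187 tested genes of chromosome 24 was 0.37, which leaves 0.07 for KDSR.

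DEGS1 (ENSBTAG00000012705, chromosome 16, 27363456 to 27373727, plus strand), the dihydroceramide desaturase, was the highest of the 10 genes per length in both genotypes. It was at 228, 236 and 207 CPM in wild-type and 352, 364 and 363 CPM in knockout libraries. It rose by 0.68 ± 0.05 on the log2 scale (1.61-fold; edgeR adjusted p = 7.00e-10), and 0.58 was left with the median of chromosome 16 taken out. Per length it gained 96.6 CPM per kilobase, from 159 ± 10.9 to 256 ± 4.74 (SD, n = 3 each).

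**Figure D4:**
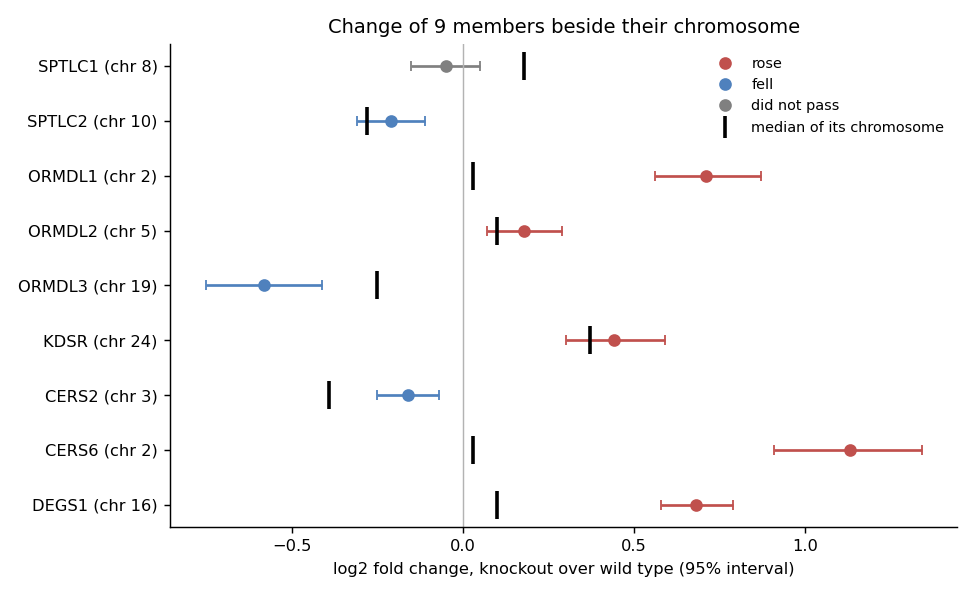
Log2 fold change (knockout over wild type) with its 95% interval for the 9 genes besides SPTLC3, coloured by the edgeR call, and the median of all tested genes of the same chromosome as a black tick. ORMDL1, CERS6 and DEGS1 lie far from their ticks, and SPTLC2, ORMDL2 and KDSR have theirs within the interval. CERS2 lies above a lower tick and SPTLC1 below a higher one.

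Ceramide synthases differ in the length of the acyl chain they add. CERS2 (ENSBTAG00000000099, chromosome 3, 19792564 to 19804799, plus strand), which prefers very long chains, was at 279, 265 and 282 CPM in wild-type and 251, 250 and 239 CPM in knockout libraries. It fell by 0.16 ± 0.04 on the log2 scale (1.12-fold; edgeR adjusted p = 0.00369). The median of the 739 tested genes of chromosome 3 was -0.39, and with it taken out CERS2 stood at 0.23, of opposite sign. CERS2 also overlaps SETDB1 on the other strand by 2845 bases, and SETDB1 fell by 1.18 ± 0.07 on the log2 scale. The part of the overlap in the value for CERS2 was not tested.

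CERS6 (ENSBTAG00000044179, chromosome 2, 27359574 to 27712447, minus strand), which prefers palmitoyl chains, had the largest change among the 9 genes. It was at 9.43, 10.2 and 8.74 CPM in wild-type and 18.7, 22.6 and 20.8 CPM in knockout libraries. It rose by 1.13 ± 0.10 on the log2 scale (2.18-fold; edgeR adjusted p = 1.47e-08), and with the median of chromosome 2 taken out 1.10 was left.

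The other ceramide synthases gave the setting for this shift. CERS5, which like CERS6 prefers palmitoyl chains, was at 129, 121 and 121 CPM in wild-type and 156, 156 and 168 CPM in knockout libraries and rose by 0.37 ± 0.05 on the log2 scale. CERS4 rose from 0.898 ± 0.135 to 2.24 ± 0.733 CPM (SD, n = 3 each), and CERS1, the neuronal form, had only 1 to 5 counts per library. CERS3, which makes the ceramides of the skin barrier, was at 4.29, 5.20 and 3.88 CPM in wild-type and 0.861, 0.761 and 0.836 CPM in knockout libraries, and fell by 2.44 ± 0.23 on the log2 scale. FA2H, which hydroxylates the acyl chains of such ceramides, fell by 2.03 ± 0.26. The squamous markers IVL and TGM1 were lower in the same libraries, while KRT10 did not pass (0.15 ± 0.20 on the log2 scale). The part of the squamous markers in these values was not tested.

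Of the summed per-length level of the 6 ceramide synthases, CERS2 held 61.4%, 61.3% and 63.2% in wild-type and 53.1%, 52.1% and 49.7% in knockout libraries. CERS5 went from 33.1% ± 0.781 to 39.8% ± 1.53 and CERS6 from 3.83% ± 0.376 to 7.78% ± 0.685 (SD, n = 3 each). Between the 2 members, the ratio of CERS2 to CERS6 was 16.5, 14.4 and 18.0 in wild-type and 7.49, 6.17 and 6.38 in knockout libraries. The summed level itself differed little, at 165 ± 4.09 and 178 ± 1.58 CPM per kilobase.

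Around these 10 genes, 62 further sphingolipid genes were listed, of which 61 had a row and 45 enough counts for the test. Of these, 21 rose, 17 fell and 7 did not pass, so that 84.4% were called. As with the members, this is set beside 74.6% of all genes, and the median log2 fold change of 0.09 lies close to that of all genes, -0.01. Taking out the chromosome median turned the sign of 4 of the 38 calls (ELOVL1, ELOVL7, SAMD8 and PSAP).

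Acyl chains for CERS2 come from the very-long-chain elongation cycle, where 2 tested genes rose, 4 fell and 1 did not pass. The share of all genes was 37.1% up and 37.6% down. HSD17B12, a reductase of the cycle, fell by 1.04 ± 0.05 on the log2 scale, from 229 ± 7.03 to 111 ± 5.25 CPM. It shares bases with a locus on its own strand that has reads (RF00026), so its count is less certain. TECR and HACD2, which act after HSD17B12, fell by 0.42 ± 0.05 and 0.39 ± 0.08. The elongases went both ways: ELOVL1, at 228 ± 15.5 CPM in wild type and 182 ± 9.12 CPM in the knockout (SD, n = 3 each), fell by 0.32 ± 0.05, on a chromosome with a median of -0.39. ELOVL4 and ELOVL7 rose, by 1.14 ± 0.12 and 0.28 ± 0.05, the latter below the median of 0.48 of its chromosome.

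Genes that modify the sphingoid base went both ways. FADS3, which adds a further double bond to it, rose by 0.23 ± 0.04 on the log2 scale, from 650 ± 4.44 to 761 ± 1.49 CPM. DEGS2, which makes phytoceramide, was low, at 1.57 ± 0.248 and 0.822 ± 0.198 CPM. Its log2 fold change of -0.93 ± 0.30 was called, but not without knockout replicate 2 (-0.75, edgeR adjusted p = 0.0563) or by DESeq2 (-0.92, adjusted p = 0.0616).

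**Figure D5:**
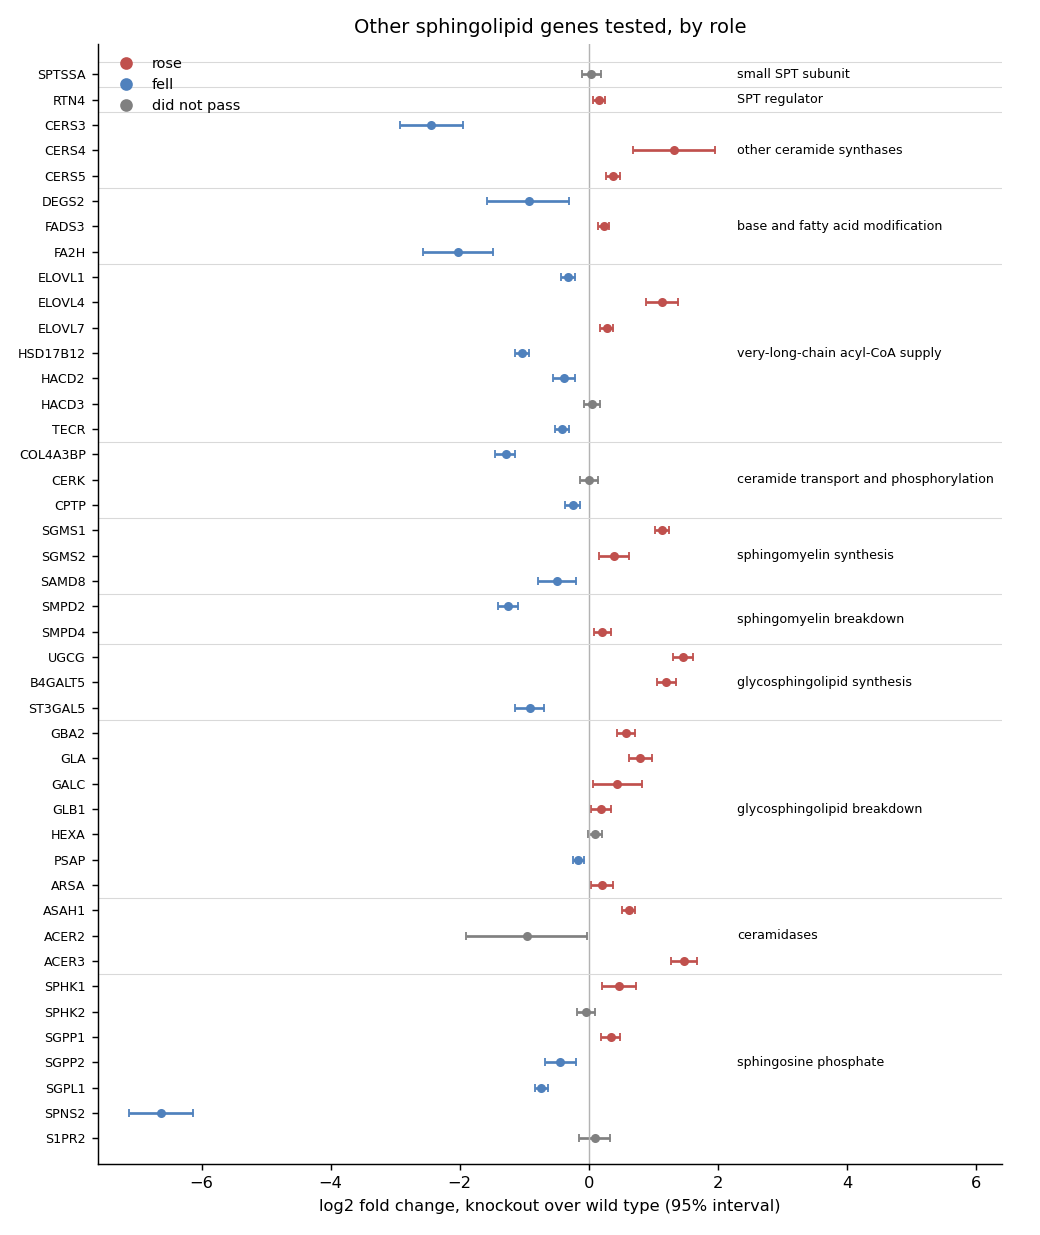
Log2 fold change (knockout over wild type) with its 95% interval for 43 of the 45 other sphingolipid genes tested, grouped by role and coloured by the edgeR call. SPNS2 lies farthest from 0, at -6.63; UGCG, ACER3, B4GALT5 and SGMS1 lie between 1.13 and 1.47, and CERS3 and FA2H at -2.44 and -2.03.

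Ceramide leaves the endoplasmic reticulum by a carrier or by vesicles. The carrier gene CERT, listed as COL4A3BP, was at 59.0, 65.6 and 71.1 CPM in wild-type and 27.7, 25.3 and 26.8 CPM in knockout libraries. It fell by 1.29 ± 0.07 on the log2 scale, on a chromosome with a median of -0.28, which leaves -1.01 when taken out. CPTP, a carrier of ceramide phosphate, fell by 0.25 ± 0.06, and the ceramide kinase gene CERK did not pass (41.7, 42.4 and 44.9 CPM in wild type, 42.1, 45.5 and 41.2 CPM in the knockout).

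Over the listed genes of ceramide transport and of sphingomyelin and glycosphingolipid synthesis, 4 of 9 tested rose, 4 fell and 1 did not pass, beside 37.1% up and 37.6% down of all genes, with a median log2 fold change of -0.00. The sphingomyelin synthase genes SGMS1 and SGMS2 rose by 1.13 ± 0.05 and 0.39 ± 0.11 on the log2 scale, SGMS1 on a chromosome with a median of 0.45, while SAMD8, which makes the ethanolamine analogue, fell by 0.49 ± 0.14. UGCG, which makes glucosylceramide, rose from 14.7 ± 0.701 to 40.3 ± 1.29 CPM, and B4GALT5, which extends it to lactosylceramide, from 28.5 ± 2.46 to 65.7 ± 1.44 CPM. ST3GAL5, which adds the first sialic acid, fell from 14.9 ± 0.639 to 7.90 ± 0.566 CPM.

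Breakdown genes were divided. The neutral sphingomyelinase gene SMPD2 fell by 1.25 ± 0.07 on the log2 scale, SMPD4 rose by 0.21 ± 0.06, and SMPD3 had too few counts to be tested (12 in the knockout, 41 in wild type). The ceramidase genes ACER3 and ASAH1 rose by 1.47 ± 0.10 and 0.62 ± 0.05. ACER2 did not pass (-0.96 ± 0.44, edgeR adjusted p = 0.0585), though it was called without knockout replicate 2 (-1.41, adjusted p = 0.0270) or wild-type replicate 1 (-1.13, adjusted p = 0.0471), by limma-voom (-1.06, adjusted p = 0.0479) and by library size only (-1.01, adjusted p = 0.0478). ACER1 had at most 4 counts in a library.

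Of 9 tested genes of lysosomal and other glycosphingolipid breakdown, 6 rose, 2 fell and 1 did not pass. Of all genes, 37.1% rose and 37.6% fell. GLA, the alpha-galactosidase, rose by 0.80 ± 0.08 on the log2 scale, and GBA2, a glucosylceramidase outside the lysosome, by 0.57 ± 0.07. PSAP, the precursor of the saposins, fell by 0.16 ± 0.04 on a chromosome with a median of -0.57. The calls of GALC, GLB1 and ARSA, at 0.44, 0.19 and 0.21, were lost when 1 library was left out: without knockout replicate 2 their edgeR adjusted p-values were 0.171, 0.101 and 0.0879. Leaving out wild-type replicate 1 also ended the calls of GALC and ARSA (0.0696 and 0.101), wild-type replicate 2 those of GALC and GLB1 (0.179 and 0.0548), and knockout replicate 3 that of ARSA (0.0594). By DESeq2 GALC and ARSA were not called (adjusted p = 0.0740 and 0.0712), and scaled by library size only none of the 3 was (edgeR adjusted p = 0.0568, 0.0776 and 0.0881). GBA2 shares bases with RGP1, CREB3 and MSMP, which have reads, and at least 1 of them lies on its own strand. SMPD2 shares bases with PPIL6 on the other strand. The counts of GBA2 and SMPD2 are therefore less certain.

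Among genes of sphingosine phosphate, SPNS2, which exports it from the cell, had 945 counts in wild-type and 9 in knockout libraries. Its level was 16.0, 17.3 and 18.5 CPM in wild type and 0.172, 0.0544 and 0.279 CPM in the knockout, and it fell by 6.63 ± 0.24 on the log2 scale (edgeR adjusted p = 2.67e-14). SGPL1, the lyase that ends the pathway, fell by 0.74 ± 0.05, on a chromosome with a median of -0.57, and the phosphatase gene SGPP2 by 0.44 ± 0.11. The kinase gene SPHK1 and the phosphatase gene SGPP1 rose by 0.47 ± 0.12 and 0.34 ± 0.07.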

How the data were processed

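The authors deposited raw counts per gene in 6 libraries, with a second table holding the log2 fold changes and adjusted p-values of their comparison. The submitters' processing notes name HISAT2 2.0.5 and featureCounts 1.5.0-p3. The sources used here name no genome build, annotation or strand setting, nor how the deposited gene lengths were made.

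Counts (17512892 to 18724879 per library) were fitted with edgeR 4.0.16 in R 4.3.3: filterByExpr (minimum count 10, minimum total 15), TMM scaling, the robust quasi-likelihood test, and p-values adjusted by Benjamini-Hochberg (threshold 0.05) over 13390 genes. The SE is the log2 fold change divided by the square root of F. The script was tested on simulated data. Alternatives used DESeq2 1.42.0, limma 3.58.1, other filters and scalings, a replicate block and leaving out each library. The 630 unnamed extra loci (0.807% to 0.884% of counts) were kept.

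The most-counted row per symbol was used. Named are all 10 members, KLF6, every gene with reads in role lists of up to 4 such genes, and otherwise up to 3 called genes per direction with the largest change, except that 2 of these genes are not reported here; HEXA, ELOVL1, GALC, GLB1, ARSA, SPHK2, S1PR2, ELOVL3, GM2A and the neighbours of SPTLC3 were added after their values were seen. Members and lists were chosen with earlier results of these data known. In the authors' deposited table, 9 of the 10 members are listed (all but SPTLC1), and the 8 besides SPTLC3 have the same sign as here. The planned comparison of member sequences was not made, since sequences were not used here.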

Additional observations from a re-analysis of the deposited data

How the results depend on the processing

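With each library left out, or by DESeq2, limma-voom, other filters, scaling by library size or a replicate block, the 9 genes besides SPTLC3 kept their direction and call (8 called throughout). The replicate block called 9894 genes against 9991. Same-numbered libraries did not deviate together (correlations -0.037, 0.067 and -0.020), so the numbers were not taken to pair them. Taking out each chromosome's median turned the sign of SPTLC2 (0.07), CERS2 (0.23), ELOVL1 (0.07), ELOVL7 (-0.20), SAMD8 (0.08) and PSAP (0.41); for genes other than the members this was added after seeing the data. The log2 ratio of the summed SPTLC1, SPTLC2 and SPTLC3 level was -0.17, and -0.22 both as TPM and by library size only; the cause was not tested. The lower bound for SPTLC3 ran from 80.6-fold to 129-fold with a library left out, lowest without a knockout library because fewer reads then set the floor. HEXA was called without wild-type replicate 3 (0.12, edgeR adjusted p = 0.0368). SPTLC3 rests on 374 counts in wild type, so its share of the subunits is known less well than those of the other members.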

Other observations

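Several genes of the wider pathway were hardly read in these cells. No count in any of the 6 libraries was assigned to 8 of the listed genes, namely SPTSSB, SMPD1, UGT8, B4GALT6, B4GALNT1, A4GALT, GAL3ST1 and S1PR3. SMPD1, the acid sphingomyelinase, is known to be widely expressed, and how the authors' counting treated that locus was not tested. ELOVL3, an elongase of very long chains, had 11 counts in the knockout and 0 in wild-type libraries, and GM2A, the ganglioside activator, had 34 and 8. Of the receptors for sphingosine phosphate only S1PR2 had enough counts for the test, at 15.2 ± 2.17 CPM in wild-type and 16.2 ± 1.94 CPM in knockout libraries (SD, n = 3 each), and it did not pass (0.09 ± 0.11, edgeR adjusted p = 0.481). SPHK2 did not pass either (-0.04 ± 0.07, edgeR adjusted p = 0.584).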
